A study of Mus musculus with 4 samples.

Results

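L6-Npy neurons are a layer 6 subtype of excitatory projection neurons of the mouse ventromedial prefrontal cortex (vmPFC), and they were taken here as the cells that carry this name in the deposited cell annotation, matched to the count matrices by library and cell barcode. They numbered 1118 of the 9368 annotated excitatory neurons, which fell into 7 subtypes and came from 24801 cell barcodes in all. Male C57BL/6 mice received 5 barcoded rAAV2-retro viruses at 8 weeks of age, 1 in each of the agranular insular cortex, dorsomedial striatum, mediodorsal thalamus, basolateral amygdala and lateral hypothalamus. Every virus carried EGFP under a CAG promoter, so that a neuron that took one up at its axon terminals could be recognised in the vmPFC, and there were no animals without virus. The prelimbic and infralimbic areas were then dissociated for droplet-based single-cell RNA-seq of transcript 3′ ends. The unsorted libraries came from 3 mice, 1 library each, and held 295, 267 and 275 L6-Npy neurons. The sorted library was made from EGFP-positive cells isolated by fluorescence-activated cell sorting from pooled mice and held 281 L6-Npy neurons. It is 1 library, so sorting, the animals and the library preparation cannot be told apart.

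Neuropeptide Y, encoded by Npy, is a secreted peptide that acts on G-protein-coupled receptors such as the Y1 and Y2 receptors, and in the cortex it is best known from GABAergic interneurons. Oprk1 encodes the kappa opioid receptor, whose ligands are the dynorphins, and Osr1 encodes a zinc finger transcription factor of the odd-skipped family. Layer 6 of the cortex holds corticothalamic neurons, which send axons to the thalamus, and intratelencephalic neurons, which send axons to other cortical areas and the striatum.

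Npy (ENSMUSG00000029819) lies on chromosome 6 at 49822710 to 49829507 of GRCm38, on the plus strand. Oprk1 (ENSMUSG00000025905) lies on chromosome 1 at 5588466 to 5606131 on the plus strand, and Osr1 (ENSMUSG00000048387) on chromosome 12 at 9570116 to 9581500 on the plus strand. Exons of Osr1 overlap 1700022H16Rik on the opposite strand. Npy2r (ENSMUSG00000028004), the Y2 receptor gene, lies on chromosome 3 at 82538383 to 82548084 on the minus strand. All 4 are protein-coding. The 250 bases upstream of the RefSeq start are shown for Npy and Npy2r, a peptide and one of its receptors that were both high in these neurons, at chr6:49822460-49822709 (plus strand) and chr3:82548086-82548335 (minus strand) of GRCm38.p6, each read 5′ to 3′ on the gene's strand. Capitals mark matches to the 4 motifs searched on both strands, which were the TATA box TATAAA, the CCAAT box CCAAT (reverse complement ATTGG), the GC box GGGCGG and the cyclic AMP response element TGACGTCA.
Npy: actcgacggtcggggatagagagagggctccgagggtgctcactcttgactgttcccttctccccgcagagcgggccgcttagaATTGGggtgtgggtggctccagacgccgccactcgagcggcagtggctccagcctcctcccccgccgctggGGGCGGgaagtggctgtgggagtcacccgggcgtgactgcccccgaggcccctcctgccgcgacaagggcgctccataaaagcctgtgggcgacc
Npy2r: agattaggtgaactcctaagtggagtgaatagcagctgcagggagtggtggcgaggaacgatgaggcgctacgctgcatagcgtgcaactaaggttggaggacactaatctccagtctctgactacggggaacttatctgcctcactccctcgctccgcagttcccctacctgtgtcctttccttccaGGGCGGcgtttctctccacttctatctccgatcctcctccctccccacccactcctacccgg
The Npy window held a GC box 95 to 90 bases before the start and a CCAAT box on the other strand 166 to 162 bases before it. The Npy2r window held 1 GC box, 62 to 57 bases before the start. Of 32851 RefSeq mouse promoters of the same 250 bases, 32.7% held a GC box, 33.8% a CCAAT box, 12.4% a TATA box and 1.55% a cyclic AMP response element. GC content was 69.2% for Npy and 56.8% for Npy2r, against a median of 52.4% over all promoters. These matches describe letters in the window only.

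The libraries held 54749198 to 87841541 UMIs (unique molecular identifiers, which count captured transcripts), and the L6-Npy neurons contributed 5417097 to 7237228 UMIs per library. Counts were summed over the L6-Npy neurons of each library and given as CPM, that is, scaled to the same total for every sum. No barcode was shared between the L6-Npy neurons of different libraries, while 4, 0, 1 and 5 of them by library also occurred in the barcode list of another library. Across genes, the L6-Npy sums of the unsorted libraries correlated with each other at r = 0.994, and the sorted library stood apart at r = 0.965 to 0.968 with them. Excitatory markers summed to 5830 to 6075 CPM in the L6-Npy neurons of the 4 libraries, and Slc17a7 and the other members of that list were detected in every library.

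All 3 markers of the name were high in L6-Npy neurons of every library. Npy was at 217, 219 and 279 CPM in the unsorted L6-Npy neurons and 133 CPM in the sorted ones, against 3.07, 2.77, 4.19 and 0.951 CPM in the other excitatory neurons of the same libraries. Oprk1 was at 85.1, 95.1, 90.0 and 104 CPM against 1.54, 1.16, 1.89 and 2.70 CPM. Osr1 was at 31.0, 25.3, 34.2 and 35.1 CPM against 0.418, 0.471, 0.287 and 0.453 CPM. The 2 groups of cells did not overlap for any of the 3 genes, and the ratio of the mean levels was 77.3-fold for Npy, 51.3-fold for Oprk1 and 77.1-fold for Osr1. The cells had been clustered on expression, so these differences describe the subtype and were not tested.

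The order of the subtypes below L6-Npy was less distinct. For Npy, L5-S100b came next with 4.81 ± 1.85 CPM (SD, n = 4 libraries), and the other 5 subtypes had means of 1.54 to 2.91 CPM, within about the spread between libraries of each other. For Oprk1, L2/3-Rorb had 6.09 ± 3.23 CPM and L5-S100b 4.41 ± 0.794 CPM, which do not differ beyond their spread. For Osr1, L5-S100b had 1.40 ± 0.614 CPM, and L2/3-Rorb, L5-Bcl6 and L5-Htr2c had 0 counts in every library.

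**Figure D1:**
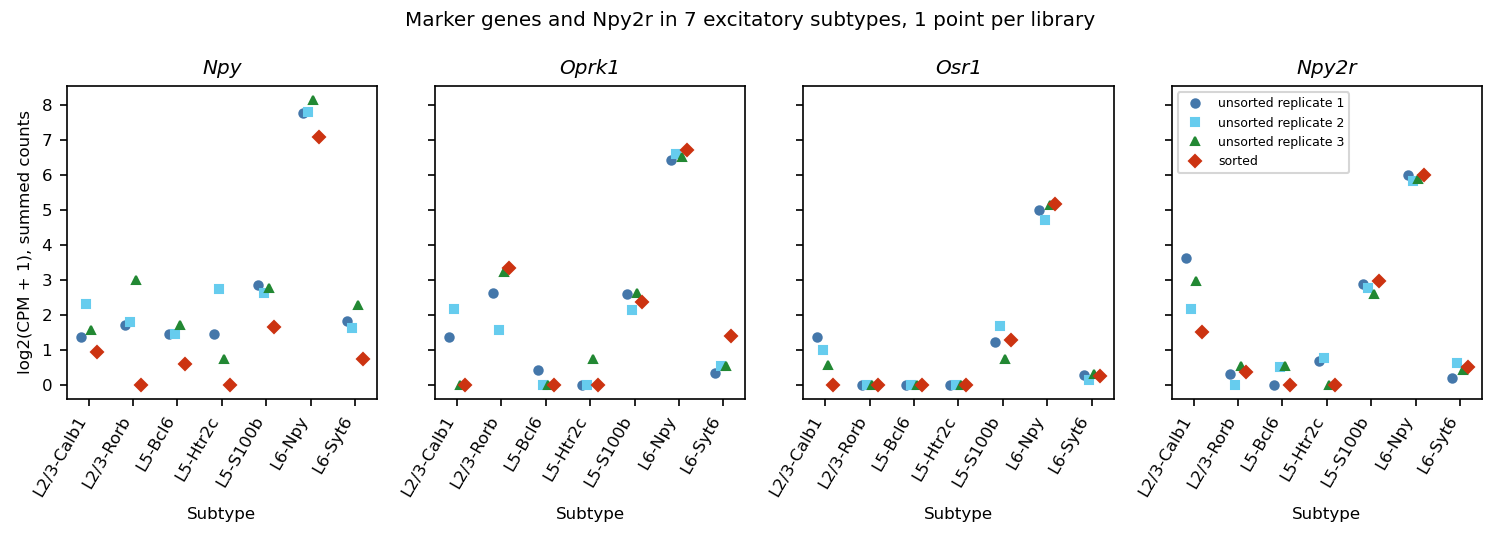
Levels of Npy, Oprk1, Osr1 and Npy2r as log2(CPM + 1) on the vertical axis in the 7 excitatory subtypes on the horizontal axis, with 1 point per library. The 4 L6-Npy points lie above every other point in each panel, and the sorted library has the lowest Npy point among them.

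Npy, Oprk1 and Osr1 were also counted cell by cell. Every cell of at least 10000 UMIs was thinned to 10000 UMIs, which kept 1106 of the 1118 L6-Npy neurons. A Npy UMI was then found in 45.1, 45.4 and 49.3% of unsorted L6-Npy neurons and in 43.7% of sorted ones (exact Clopper-Pearson 95% interval 37.8 to 49.7%). For Oprk1 the shares were 46.1, 50.4 and 53.6%, and 50.2% (44.1 to 56.2%) in the sorted library. For Osr1 they were 29.5, 21.2 and 31.0%, and 28.2% (22.9 to 33.9%). For a single UMI the sorted share was inside the unsorted range for Oprk1 and Osr1 and below it for Npy. With 2 or more UMIs required, Npy was found in 36.3, 36.2 and 35.0% of unsorted and 28.2% of sorted L6-Npy neurons (22.9 to 33.9%), and Oprk1 in 21.0, 26.9 and 22.6% against 29.6% (24.3 to 35.4%), with Osr1 in 5.08, 1.92 and 6.20% against 6.50% (3.90 to 10.1%). At 2 or more UMIs the sorted library was below the unsorted ones for Npy and above them for Oprk1 and Osr1, with an interval that reached into the unsorted range except for Npy, and its Npy level in CPM was also below all of them. Without thinning, the mean unsorted shares were 53.3% for Npy, 65.1% for Oprk1 and 43.3% for Osr1. Intervals cover counting error only.

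Among the other subtypes thinned in the same way, the mean share with a Npy UMI in the unsorted libraries was 3.63% in L5-S100b and 2.23% in L6-Syt6. Oprk1 was found in 4.66% of L2/3-Rorb and Osr1 in 1.29% of L5-S100b neurons. Cells gated as microglia, which should lack all 3 genes, were shallower (median 4264 to 4482 UMIs per library against 19031 to 20812 in unsorted L6-Npy neurons), so both were thinned to 2000 UMIs. At that depth Npy was found in 26.5% of unsorted L6-Npy neurons and 0.928% of microglia, Oprk1 in 17.0% and 0.0808%, and Osr1 in 6.78% and 0 of 2558 microglia. Inhibitory neurons, gated on Gad1 and Gad2, had Npy in 28.8% of cells at 2000 UMIs and a Npy level of 1597 ± 131 CPM (SD, n = 3 unsorted libraries). Gad1 or Gad2 UMIs were present in 2.71, 3.37 and 5.45% of unsorted L6-Npy neurons and in 0 of 281 sorted ones, while 5.71, 4.82, 5.53 and 0.908% of the other excitatory neurons had them.

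The markers were spread unevenly over the cells. At 10000 UMIs, 6.54 to 10.8% of L6-Npy neurons had all 3 markers, 19.3 to 28.1% had none, and of the cells without a Npy UMI 48.6 to 61.9% had an Oprk1 or Osr1 UMI. The median was 0 Npy UMIs per cell in all 4 libraries, and the highest cell had 26, 40 and 35 of them (unsorted) and 16 (sorted). A minority of cells thus held high Npy counts, and the highest of them were lower in the sorted library.

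The genes that set L6-Npy neurons apart were then described over the 9275 genes at 10 CPM or more in either group, as the difference in log2(CPM + 1) between L6-Npy and all other excitatory neurons of the same library. With a mean difference of 1 or more, in the same direction in 4 of 4 libraries, 295 genes were higher (3.18%) and 332 were lower (3.58%). Rimbp2, Ccdc173 and Pygb (1.01, 1.01 and 1.00) lay just inside this limit and Pag1, Kctd6 and Cdh13 (1.00, 1.00 and 0.99) just outside. The other neurons were mostly L6-Syt6 (5092 cells), so a gene low in L6-Syt6 alone can enter the list. With each other subtype given equal weight, 192 genes were higher, of which 172 were among the 295, and 349 were lower, of which 232 were among the 332. Without the sorted library the counts were 292 and 306.

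The 16 genes with the highest mean difference are given next. Besides Npy (mean difference 5.87 ± 0.17, SD, n = 4), Oprk1 (5.09 ± 0.28) and Osr1 (4.52 ± 0.26), they included Npy2r at 4.53 ± 0.08, so that the peptide gene and a gene for one of its receptors were both high in the same subtype. Npy2r was at 62.4, 55.6, 58.0 and 62.2 CPM in L6-Npy and at 1.40 to 1.90 CPM in the other neurons. Dcn, which encodes the proteoglycan decorin, differed by 4.73 ± 0.09 (45.3 against 0.746 CPM), and the collagen gene Col5a2 by 3.67 ± 0.15. Unc13c, which encodes a synaptic vesicle priming protein, differed by 4.25 ± 0.57, Sv2c, a synaptic vesicle glycoprotein, by 3.29 ± 0.26, and Asic4, of the acid-sensing ion channel family, by 4.24 ± 0.20. Pdlim5, a scaffold protein with PDZ and LIM domains, differed by 3.76 ± 0.03.

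Others of the 16 were Lpl (lipoprotein lipase, 3.36 ± 0.45), Gstm1 (a glutathione transferase, 3.32 ± 0.11), Slc7a11 (the cystine and glutamate exchanger, 3.31 ± 0.27) and B3gnt5 (a glycosyltransferase of glycolipid synthesis, 3.48 ± 0.16). Ccdc3 (3.85 ± 0.24) and Smim3 (3.31 ± 0.17) completed the 16 with the largest differences. Several of these genes are also overlapped by other annotated genes, including Slc7a11 and Ccdc3 by genes on the opposite strand.

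Not all of these genes were particular to L6-Npy when the subtypes were taken 1 by 1. Npy exceeded the next highest subtype by 5.22 in mean log2(CPM + 1), Oprk1 by 3.88, Osr1 by 3.78, Dcn by 3.68, Pdlim5 by 3.38, Npy2r by 3.12, Smim3 by 2.85 and Col5a2 by 2.71, which were the 8 largest such gaps. Unc13c was only 0.66 above L5-Htr2c (32.8 ± 6.61 against 20.8 ± 6.53 CPM), and Lpl was higher in L2/3-Calb1 (121 ± 11.9 CPM) than in L6-Npy (68.2 ± 18.5 CPM).

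Most of the genes lowest in L6-Npy neurons were highest in the other layer 6 subtype or in L5-Htr2c. Hs3st4, a heparan sulfate sulfotransferase gene, was at 5.34, 7.75, 6.85 and 2.35 CPM in L6-Npy and at 245, 249, 240 and 400 CPM in the other neurons, a mean difference of -5.49 ± 0.96. Foxp2, a transcription factor gene of deep-layer neurons, was at 5.00, 6.46, 7.19 and 1.38 CPM against 155, 158, 150 and 177 CPM (-4.89 ± 0.91). Rprm differed by -4.93 ± 0.49, Syt6, a synaptotagmin gene and the name of the other layer 6 subtype, by -4.57 ± 0.83, and Pitpnc1, a phosphatidylinositol transfer protein gene, by -4.72 ± 0.41. Each of these 5 was highest in L6-Syt6. Kcnk2 (a background potassium channel, -4.81 ± 0.22), Rnf152 (-4.75 ± 0.27), Nxph3 (a neurexophilin, -4.67 ± 0.43) and Col12a1 (-4.56 ± 0.24) were highest in L5-Htr2c, and Marcksl1 (-4.73 ± 0.17) in L2/3-Rorb.

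**Figure D2:**
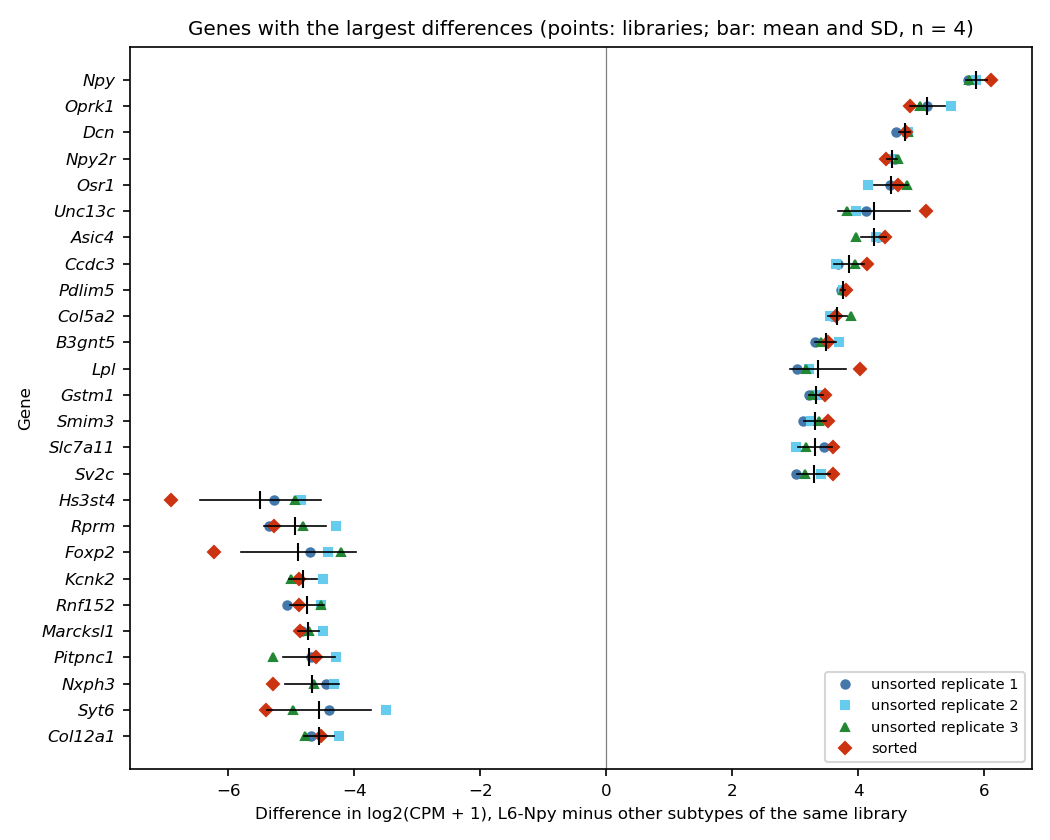
Differences in log2(CPM + 1) between L6-Npy and the other excitatory neurons of the same library, on the horizontal axis, for the 16 genes with the highest and the 10 with the lowest mean difference, with 1 point per library and a bar for the mean and SD (n = 4). The 4 libraries lie on the same side of 0 for each gene shown, with the widest spread for Hs3st4, Foxp2 and Syt6.

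Measured over 10200 genes at 10 CPM or more in any subtype, the mean log2(CPM + 1) profile of L6-Npy was most like those of L5-S100b (Pearson r across genes = 0.943, with 695 genes 2-fold or more apart) and L2/3-Calb1 (r = 0.935, 734 genes). L6-Syt6, the other layer 6 subtype, had r = 0.900 with 1130 genes apart, and L5-Htr2c was the least like (r = 0.818, 2078 genes). Genes are not independent replicates, all profiles share the same 4 libraries, and smaller clusters have noisier sums, so these values are descriptions.

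Most corticothalamic markers, the near-projecting markers that were tested and some extratelencephalic markers were low in L6-Npy neurons. For L6-Npy against the other neurons, each count of list members stands beside the background of all 9275 genes. Of these 3.18% were higher and 3.58% lower. Nothing is read from a list's share, since the clusters were made with these genes. The later tests have their own backgrounds, given with them. Of 12 corticothalamic markers 10 were lower and none higher, with a median difference of -3.17 against 0.00 over all genes tested. Examples besides those above are Tle4 (13.0 against 169 CPM, -3.60 ± 0.12) and Fezf2 (17.6 against 103 CPM, -2.50 ± 0.11). All 4 near-projecting markers tested were lower, with Tshz2 at 0.564 against 33.3 CPM, and 3 of 5 extratelencephalic markers were lower. Of 11 layer markers 2 were higher and 7 lower. The higher pair comprised Rasgrf2 (1.29 ± 0.09) and Sulf1, a layer 6 marker and extracellular sulfatase, at 97.8 ± 4.16 CPM in L6-Npy and 71.7 ± 6.07 CPM in L6-Syt6 against 0.808 to 5.64 CPM in the other 5 subtypes. The upper-layer genes Cux2 and Rorb were at 0.769 and 2.35 CPM.

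Intratelencephalic markers gave a mixed picture, with 1 of 10 higher and 4 lower. The higher one was Slc30a3, the synaptic vesicle zinc transporter, at 126 ± 19.8 CPM in L6-Npy, 127 ± 17.6 CPM in L5-S100b and 1.94 ± 0.581 CPM in L6-Syt6. Among 5 claustrum and Car3-type markers tested, Oprk1 and Gnb4 (104 against 28.8 CPM, 1.82 ± 0.14) were higher and Synpr was lower. Of the 2 layer 6b markers tested, Lpar1 was higher (1.56 ± 0.04) and Ctgf lower (-3.95 ± 0.21). Of 8 excitatory neuron markers only Slc17a6, the type 2 vesicular glutamate transporter gene, was lower (0.471 against 22.9 CPM) and none was higher. Of 44 transcription factor genes 3 were higher, namely Osr1, Nr3c2 (the mineralocorticoid receptor, 1.85 ± 0.23) and Foxo1 (1.21 ± 0.14), and 16 were lower.

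Several peptide and receptor genes were high in L6-Npy neurons. Of 8 neuropeptide genes tested, Npy, Penk and Cck were higher and Grp lower. Penk, which encodes the enkephalin precursor, was at 11.6 ± 3.81 against 0.780 ± 0.156 CPM, and Cck, which encodes cholecystokinin, at 3154 against 789 CPM (1.93 ± 0.23), although L2/3-Rorb, L5-S100b and L2/3-Calb1 also had 2256 to 2693 CPM of Cck. Of 14 neuropeptide receptor genes, Oprk1, Npy2r and Adcyap1r1 (the PACAP receptor, 110 against 26.0 CPM, 2.03 ± 0.05) were higher and Sstr2, a somatostatin receptor, was lower (17.7 against 50.2 CPM).

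Of 17 receptor genes for monoamines, acetylcholine and cannabinoids, 5 were higher and 4 lower. Drd2, the D2 dopamine receptor gene, was at 17.3 ± 6.20 CPM against 0.984 ± 0.441 CPM (3.17 ± 0.27), with 4.98 CPM in the next subtype, L5-Bcl6. Drd1 was at 67.2 ± 3.17 CPM in L6-Npy and 41.5 ± 0.971 CPM in L6-Syt6. The muscarinic receptor gene Chrm2 (1.89 ± 0.25) and the serotonin receptor genes Htr2a (1.80 ± 0.18) and Htr1b (1.77 ± 0.27) were the other higher members, and Htr2c, Chrna4, Htr1f and Htr1a were lower. Chrm2 was higher still in L5-Htr2c (63.6 ± 7.74 CPM) and Htr1b in L2/3-Calb1 (43.2 ± 3.63 CPM).

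Channel and fast transmitter receptor genes are set beside the same background of 3.18% higher and 3.58% lower. Of 13 GABA receptor genes none passed in either direction, and of 20 glutamate receptor genes 2 were higher, including Grin3a (1.58 ± 0.11), and 1 lower, Grm2. Of 40 potassium and HCN channel genes 2 were higher and 4 lower, Kcnk2 among them, and of 21 sodium and calcium channel genes Cacna1g (a T-type calcium channel, 1.54 ± 0.16) and Cacna2d3 were higher and none was lower. Of 27 calcium-binding protein and synaptotagmin genes 2 were higher, including Calb1 (49.0 against 17.3 CPM), and 4 lower, including Pcp4 (145 against 1675 CPM). Calb1 is also the gene that names the L2/3-Calb1 subtype.

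Genes of axon guidance and adhesion were found on both sides, and the background for the counts was again 3.18% higher and 3.58% lower. Of 34 axon guidance genes 10 were higher and 3 lower, with a median of 0.24. The higher ones included the secreted semaphorins Sema3e (98.6 ± 6.40 against 22.6 ± 1.97 CPM, 2.08 ± 0.13) and Sema3c (108 ± 9.79 against 27.7 ± 3.90 CPM, 1.93 ± 0.07) and the netrin receptor genes Unc5d (1.90 ± 0.22), Unc5c (1.68 ± 0.10) and Dcc (1.08 ± 0.20). Robo3 (2.66 ± 0.36) was also higher, and Sema5a (-3.82 ± 0.27), Ephb1 (-2.86 ± 0.34) and Plxnd1 (-2.09 ± 0.45) were lower. Of 20 cadherins and protocadherins 3 were higher, with Cdh9 at 65.0 against 8.54 CPM, and 3 lower. Of 16 immediate early genes Ptgs2 (127 against 14.1 CPM, 3.08 ± 0.24), Fosl2 (1.67 ± 0.18) and Bdnf (1.34 ± 0.27) were higher and none was lower.

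**Figure D3:**
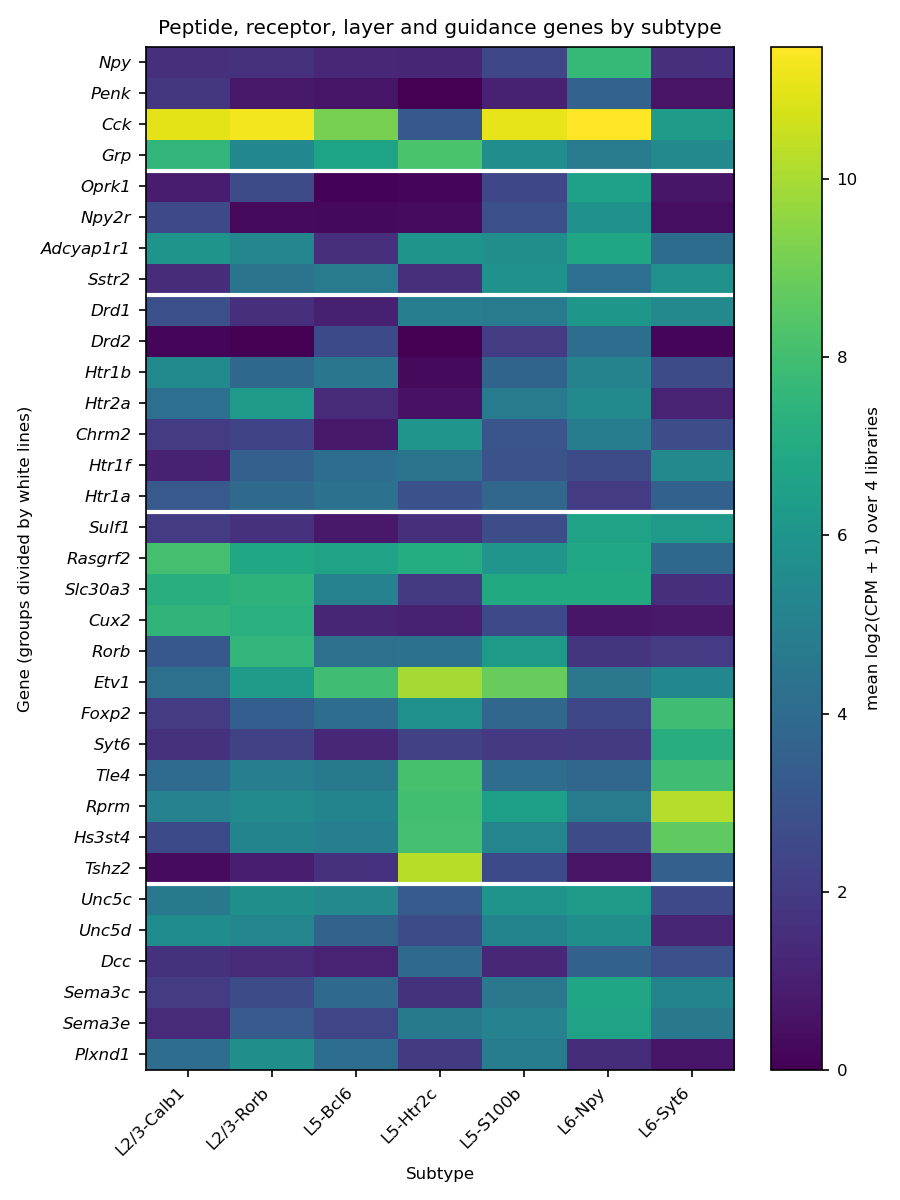
Mean log2(CPM + 1) over 4 libraries (colour) of peptide, receptor, layer and projection, and axon guidance genes (vertical axis) in the 7 excitatory subtypes (horizontal axis). Npy, Oprk1 and Npy2r are brightest in L6-Npy, while Cck and Slc30a3 are bright in several subtypes and Foxp2, Syt6 and Rprm in L6-Syt6.

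Markers of other cell types were summed per library. Of 12 inhibitory markers 2 were tested, and Nos1 was higher (1.33 ± 0.12) and Lamp5 lower in L6-Npy. The list summed to 70.1 to 80.8 CPM in unsorted and 139 CPM in sorted L6-Npy neurons against 58.1 to 80.3 CPM in the other neurons. Most of the sum in L6-Npy neurons came from Nos1, with Slc32a1 at 0 to 0.554 CPM and Gad1 at 0 to 1.54 CPM. In the other unsorted neurons Nos1 was at 22.1 to 23.1 CPM and Lamp5 at 20.1 to 22.0 CPM. The astrocyte list summed to 105 to 130 CPM against 916 to 1148 CPM, most of it from Slc1a2, which was the 1 member of 6 that was tested and was lower (-3.06 ± 0.12). Microglia markers summed to 14.8 to 25.8 CPM in unsorted and 2.21 CPM in sorted L6-Npy neurons and were higher than in the other neurons in 4 of 4 libraries (13.8 CPM in the other neurons of unsorted replicate 2, 14.7 CPM in those of replicate 3 and 1.72 CPM in sorted ones), and no member was tested in this comparison. Endothelial markers summed to 12.7 to 22.3 CPM against 4.37 to 9.17 CPM, also higher in 4 of 4 libraries. Most of the sum in L6-Npy neurons came from Itm2a, the 1 member tested, which was higher (1.72 ± 0.07). Neither of the 2 oligodendrocyte lineage markers tested was counted. The part of such RNA in the differences above was not tested.

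UMIs, genes and mitochondrial share per cell were compared between L6-Npy and the other excitatory neurons of each library. The difference in median UMIs per cell, L6-Npy minus the others, was -4103 on average (SD 2535, n = 4, range -7905 to -2784), that in detected genes was -352 (SD 143), and that in the mitochondrial share of UMIs was 1.73 percentage points (SD 0.295). All 3 differences had the same sign in 4 of 4 libraries, with a two-sided exact permutation p of 0.125, the smallest that 4 pairs allow. The larger mitochondrial share stands beside every difference between L6-Npy and the others, and its part in them was not tested. Among excitatory neurons of at least 10000 UMIs, L6-Npy made up 10.9, 10.7 and 11.4% of the unsorted and 17.8% of the sorted cells, and the sort gate on EGFP can set this share.

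To see how L6-Npy neurons vary among themselves, the 507 cells with a Npy UMI at 10000 UMIs were compared with the 599 without one, as summed counts of the 2 sides in each of the 4 libraries. The test was edgeR's quasi-likelihood test with the library as a block and with Npy left out. Among 10174 genes, 156 were higher (1.53%) and 176 lower (1.73%) in Npy-detected cells where a call needed an adjusted p below 0.05 (Benjamini-Hochberg) and a fold change of 0.5 or beyond on the log2 scale. Without the sorted library 116 rose and 139 fell. With DESeq2 52 rose and 44 fell, and without the library block 33 rose and 35 fell. The cells had been clustered on expression, so levels of Npy and the other defining genes could bear on which cells were included. Npy detection within the cluster was not itself part of the rule, but the test is not free of that selection. A cell without a Npy UMI at this depth may still express the gene.

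A share of the other L6-Npy genes rose with Npy. Of the 295 genes counted above as higher in the subtype, 294 were tested, and 69 rose and 7 fell in Npy-detected cells. Of the 332 counted as lower, 210 were tested, and 6 rose and 54 fell. Over all 10174 genes 1.53% rose and 1.73% fell. Both groups of genes were chosen on sums over the same cells, so these counts are descriptions. For the same reason the p-values of such genes below are no independent support. Sv2c was at 48.9, 53.4, 46.7 and 73.6 CPM in Npy-detected and 10.5, 11.3, 12.9 and 19.9 CPM in Npy-zero cells of the 3 unsorted libraries and the sorted one, so that the groups did not overlap (log2 fold change 2.04 ± 0.16 SE, edgeR adjusted p = 2.03e-14). Pdlim5 rose by 1.71 ± 0.20 (adjusted p = 2.54e-09), Ccdc3 by 1.09 ± 0.09 and Gstm1 by 0.99 ± 0.11. Oprk1 rose by 0.77 ± 0.10 (adjusted p = 9.63e-08), Npy2r by 0.59 ± 0.12 (adjusted p = 0.000311) and Dcn by 0.59 ± 0.13, each higher in 4 of 4 libraries. Osr1 was 0.43 ± 0.15 higher without passing (adjusted p = 0.0778), and Unc13c differed by 0.05 ± 0.15 (adjusted p = 0.921). With Npy-detected defined as 2 or more UMIs, Osr1 passed (0.55, adjusted p = 0.0158).

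The 6 largest rises were those of Aspg (2.83 ± 0.57), S100a3 (2.66 ± 0.34), Sptssb (2.60 ± 0.40), Dmkn (2.25 ± 0.45), S100a13 (2.10 ± 0.28) and Cd63 (2.09 ± 0.36). S100a3 and S100a13 encode S100 calcium-binding proteins, Sptssb a subunit of serine palmitoyltransferase and Cd63 a tetraspanin. Exons of S100a3 overlap S100a2, so its counts are uncertain. The 5 largest falls were those of Nnmt (-2.84 ± 0.55), Fras1 (-2.83 ± 0.25), Pou3f2 (-2.80 ± 0.35), Frzb (-2.67 ± 0.47) and Sstr2 (-2.53 ± 0.28). Fras1, an extracellular matrix protein gene, was at 5.26, 1.69, 2.96 and 8.26 CPM in Npy-detected and 32.1, 29.6, 35.3 and 35.9 CPM in Npy-zero cells. Sstr2 was at 6.02, 0.847, 2.96 and 8.26 CPM against 24.1, 30.3, 22.3 and 32.1 CPM, and the groups did not overlap for either gene. DESeq2 did not call Nnmt, Aspg or Dmkn.

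Where transcription factor genes changed with Npy detection, most fell. Of 40 tested, 10 fell and 1, Foxo1 (0.73 ± 0.19), rose, while the background was 1.73% falling and 1.53% rising, and the list's median was -0.02 against 0.00 for all genes. Those that fell included the POU genes Pou3f2, Pou3f3 (-1.87 ± 0.31) and Pou3f1 (-2.32 ± 0.52) together with Foxp1 (-1.11 ± 0.08), Etv1 (-1.02 ± 0.19), Rora (-1.15 ± 0.22) and Lhx2 (-1.93 ± 0.41). Foxp1 was at 105, 89.8, 99.3 and 154 CPM in Npy-detected and 235, 236, 209 and 294 CPM in Npy-zero cells, and was lower in 4 of 4 libraries. Of 17 neuropeptide receptor genes 3 rose, namely Oprk1, Npy2r and Tacr3 (a tachykinin receptor, 1.97 ± 0.41), and Sstr2 fell. Of 15 receptor genes for monoamines, acetylcholine and cannabinoids none rose and 4 fell, namely Chrna4 (-2.28 ± 0.37), Htr2a (-0.71 ± 0.15), Adra2c (-1.06 ± 0.23) and Chrm3 (-0.94 ± 0.21).

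Of 34 axon guidance genes 7 rose, including Nrp1 (1.00 ± 0.15), and 3 fell, including Ntng1 (-1.54 ± 0.15). The background was again 1.53% rising and 1.73% falling. Of 40 potassium and HCN channel genes 1 rose and 4 fell, among them Kcnq3 (-0.72 ± 0.09) and Kcnh7 (-0.84 ± 0.11). None of the 20 glutamate receptor, 13 GABA receptor and 21 sodium and calcium channel genes tested was called. Chgb, which encodes a granin of dense-core vesicles, was the 1 of 7 neuropeptide list genes that rose (0.63 ± 0.06). In the corticothalamic list, 9 were tested, Crym rose (1.18 ± 0.14) and Rprm fell (-1.18 ± 0.25). Rprm was lower in 3 of 4 libraries, at 5.93 against 45.8 CPM in unsorted replicate 2 but 18.5 against 17.3 CPM in replicate 3. Slc1a2, a glutamate transporter gene and the 1 astrocyte marker tested, fell by 1.62 on the log2 scale (SE 0.11), and the astrocyte list summed to 43.6 to 60.7 CPM in Npy-detected and 123 to 169 CPM in Npy-zero cells. Itm2a, the 1 endothelial marker tested, rose by 0.79 ± 0.24 (adjusted p = 0.0303), and that list summed to 16.5 to 28.9 CPM against 9.62 to 20.9 CPM. The part of RNA from such cells in the split was not tested. Without cells with a Gad1 or Gad2 UMI 160 genes rose and 165 fell, of which 149 and 161 were among those above.

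**Figure D4:**
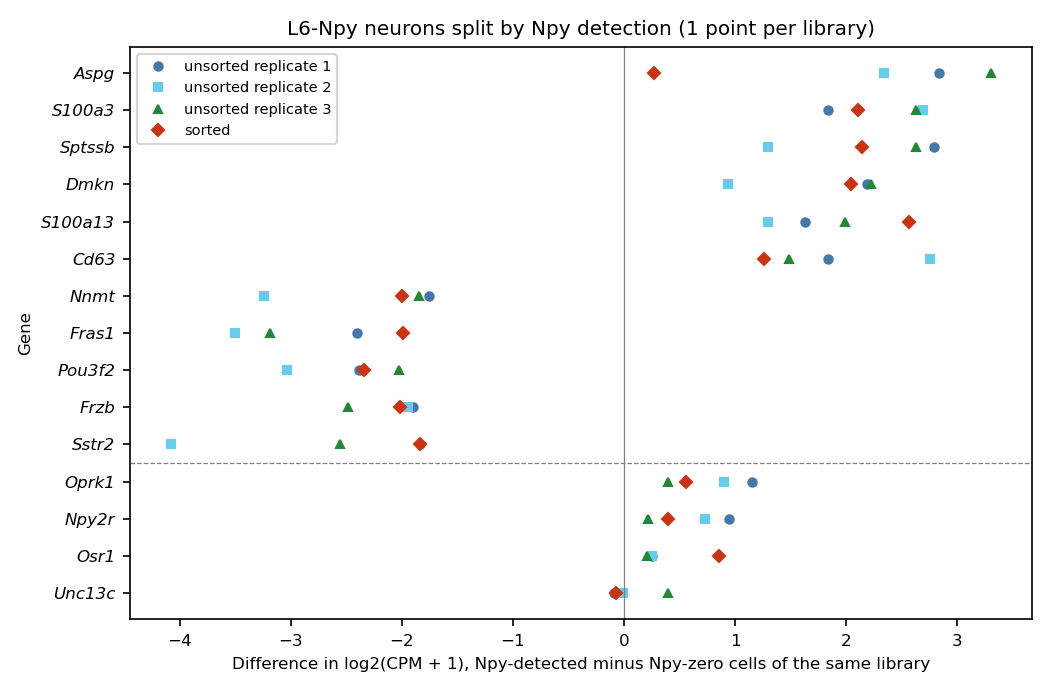
Differences in log2(CPM + 1) between Npy-detected and Npy-zero L6-Npy neurons of the same library, on the horizontal axis, with 1 point per library. Above the dashed line are the 6 genes with the largest rises and the 5 with the largest falls, whose points lie on 1 side of 0 in 4 of 4 libraries, and below it are genes that define the subtype, of which Unc13c lies near 0.

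Sorted and unsorted L6-Npy neurons were compared next, on 4 sums, with the sorted library assumed to vary as the unsorted ones do. By edgeR's quasi-likelihood test, 860 of 12489 genes were higher (6.89%) and 1713 lower (13.7%) in the sorted L6-Npy neurons. Since 1 sorted library was made, these p-values cannot separate sorting from the animals, and for the unsorted libraries replicate means 1 mouse. The sorted cells were deeper, with a median of 25488 UMIs. Among the defining genes, Npy was lower by 0.97 ± 0.10 (SE) on the log2 scale (adjusted p = 2.13e-08), and Lpl was higher by 0.56 ± 0.09 (adjusted p = 7.57e-06). Oprk1 (0.07 ± 0.08, adjusted p = 0.509), Osr1 (0.08 ± 0.13, adjusted p = 0.668) and Npy2r (-0.05 ± 0.09, adjusted p = 0.739) did not pass. The sorted library was outside the range of the 3 unsorted ones for Npy and Lpl. It was also outside for Oprk1 (104 against 85.1 to 95.1 CPM) and Osr1 (35.1 against 25.3 to 34.2 CPM), and inside for Npy2r.

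Several neuropeptide genes fell and several receptor and channel genes rose in the sorted library. Each list count stands beside the share over all 12489 genes, 6.89% higher and 13.7% lower, as given above. Of 11 neuropeptide genes 5 fell and none rose, with a median of -0.91 against 0.00 for all genes. Cck fell from 3886, 3577 and 3931 CPM to 1220 CPM (-1.77 ± 0.06, adjusted p = 4.52e-18) and Grp from 34.1, 30.8 and 37.5 CPM to 10.6 CPM (-1.81 ± 0.16). Sst and Vip, which are interneuron peptides, also fell, the latter to 0 counts. Of 40 potassium and HCN channel genes 9 rose and none fell, with Kcna2 at 65.1, 67.9 and 64.5 CPM unsorted and 146 CPM sorted (1.02 ± 0.08, adjusted p = 2.45e-11) and Kcna1 similar (0.98 ± 0.08). Of 22 sodium and calcium channel genes 6 rose, including Scn8a (0.60 ± 0.07), and of 22 glutamate receptor genes 7 rose, including Grin2b (0.74 ± 0.06), with none lower in either list. Of 37 axon guidance genes 8 rose and none fell, and of 20 neuropeptide receptor genes 5 rose and none fell, among them Cckbr (0.82 ± 0.10) and Adcyap1r1 (0.57 ± 0.07).

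Corticothalamic markers, already low in L6-Npy, were lower still in the sorted library for 6 of 12, including Foxp2 (-2.28 ± 0.40), Hs3st4 (-1.62 ± 0.34) and Crym (-1.20 ± 0.12), and Ntsr1 was higher. Nos1 rose by 1.02 ± 0.09. The list counts here stand beside the same share over all genes, 6.89% higher and 13.7% lower. Microglia markers fell for 5 of 6, oligodendrocyte lineage markers for 3 of 4 and endothelial markers for 3 of 3, beside summed microglia levels of 14.8 to 25.8 CPM unsorted and 2.21 CPM sorted. The part of RNA from such cells in the lower genes was not tested. The 6 genes with the lowest fold changes, C1qa, Vip, Tyrobp, Olig1, Cldn5 and Ccl4, had 0 counts in the sorted L6-Npy neurons. Taking 3 counts in that library as the floor, C1qa was at least 11.7-fold lower than its unsorted mean of 4.84 CPM, Vip at least 6.23-fold, Tyrobp at least 5.47-fold and Olig1 at least 5.15-fold, with Cldn5 and Ccl4 at least 3.98-fold lower. The 6 with the highest fold changes were low in every library. They were Slco2a1, a prostaglandin transporter gene (4.18 ± 0.70, at most 3.87 CPM), and Gm26798, Gm28221, Gm45486, AC165271.1 and 5031415H12Rik (2.76 to 3.03, at most 5.39 CPM).

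Whether the sort difference of L6-Npy neurons was unlike that of the other excitatory neurons was tested as an interaction over 8 sums with the library as a block. By edgeR, 34 of 15583 genes had a higher (0.218%) and 440 a lower (2.82%) sort difference in L6-Npy. The make-up of the other neurons differs between sorted and unsorted libraries, L5-Htr2c for instance having 4 sorted cells. More genes were called against L6-Syt6 alone, and fewer with DESeq2 or at 10000 UMIs per cell, with the counts given in the last section. Npy fell less in L6-Npy than in the others (0.91 ± 0.22, adjusted p = 0.00490), where its level was 2.77 to 4.19 CPM unsorted and 0.951 CPM sorted. At equal depth of 10000 UMIs this call was lost (adjusted p = 0.499). Cck fell further in L6-Npy (-0.52 ± 0.03, adjusted p = 1.99e-15), and so did Grp (-0.87 ± 0.18, adjusted p = 0.000793). Lpl rose in L6-Npy, while in the other neurons it was at 6.16, 5.22 and 6.08 CPM unsorted and 4.96 CPM sorted (interaction 0.87 ± 0.13). Oprk1 differed by -0.66 ± 0.20 (adjusted p = 0.0303), a call lost with DESeq2, at equal depth and without unsorted replicate 2.

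The genes with the lowest p-values in this comparison were chosen after their values were seen. They were Ppia (cyclophilin A, -0.85 ± 0.03), Stmn1 (stathmin, -0.73 ± 0.03), Cox5a (a subunit of cytochrome c oxidase, -1.28 ± 0.05) and Gapdh (a glycolytic enzyme, -1.10 ± 0.05). Gapdh was at 780, 797 and 913 CPM in unsorted and 202 CPM in sorted L6-Npy neurons, and at 1426, 1438, 1533 and 732 CPM in the other neurons. All of these genes were lower in the sorted library in both groups of cells and fell further in L6-Npy. The mitochondrial share of UMIs, which was also lower in the sorted library, had medians of 8.13, 8.20, 8.31 and 4.52% in L6-Npy neurons and 6.35, 6.36, 6.32 and 3.21% in the others. Its part in these genes was not tested.

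**Figure D5:**
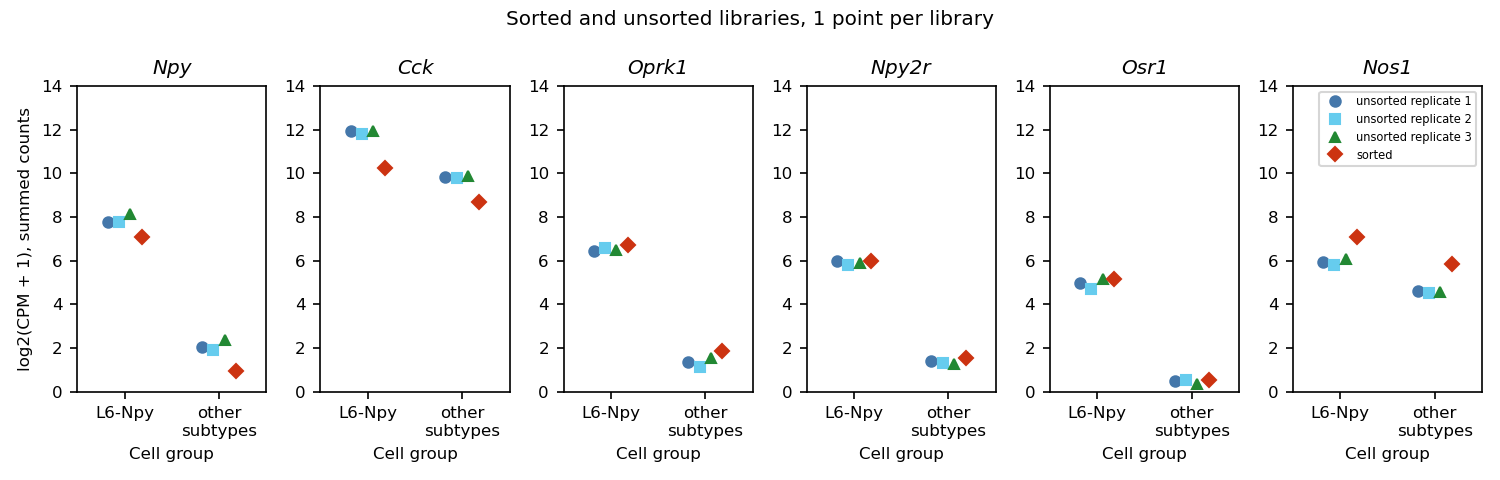
Levels as log2(CPM + 1) on the vertical axis in L6-Npy neurons and in the other excitatory neurons, with 1 point per library and the sorted library marked apart. Npy and Cck are lower in the sorted library in both groups of cells, while Oprk1 lies at 85.1 to 104 CPM in the L6-Npy neurons of the 4 libraries.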

How the data were processed

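Single-cell RNA-seq was analysed from 4 libraries of vmPFC cells, 3 unsorted (1 mouse each) and 1 sorted (pooled mice). The deposited count matrices hold UMI counts per gene and cell, which the authors made with Cell Ranger on mm10. The authors clustered the cells after regressing out UMI count, gene number, mitochondrial share and sorting condition, and merged and named the clusters by hand. The submitters' processing notes list Seurat 3.1.4 and Scanpy 3.0.46. Subtype names were taken from the deposited annotation table. How doublets were treated was not re-examined, and no doublet caller was run here.

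Counts were summed per library over L6-Npy neurons and over all other annotated excitatory neurons. The row of virus barcodes, 0.0319 to 0.0384% of UMIs, names no mouse gene and stayed out of sums and tests. L6-Npy was compared with the others as a description on log2(CPM + 1), with a pseudocount of 1 and at least 10 CPM in either group. Tests across genes used edgeR 4.0.16 (R 4.3.3; TMM, filterByExpr, glmQLFit, glmQLFTest) with calls at an adjusted p below 0.05 and a fold change of at least 0.5 on the log2 scale. DESeq2 1.42.0 was an alternative. The study tested single cells, whereas sums per library were tested here because cells are not replicates. The tests were checked on simulated data. Of the simulated 2-fold changes, 91.6% were recovered for the Npy split, 78.6% for sorted against unsorted and 49.0% for the interaction. The library block in the Npy split pairs cells of the same library.

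Named genes were Npy, Oprk1 and Osr1, the 16 highest and 10 lowest genes, the 8 largest gaps over the next subtype, up to 4 genes per list and 6 per direction and test. Some of these are not reported here. Other genes named from a list were chosen after their values were seen. The 25 gene lists, the members and the tests were chosen with earlier results of these data known. Microglia and oligodendrocyte gates used cells outside the annotation that passed the study's limits (gene number 500 to 8000, UMIs 1000 to 60000, mitochondrial share below 20%). Gene positions are from GENCODE on GRCm38 (30934 of 31053 identifiers matched), and promoters from RefSeq (16 of 26 named genes matched). Python 3.11.15, NumPy 2.4.6, pandas 2.3.3, SciPy 1.17.1 and matplotlib 3.10.9 were used.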

Additional observations from a re-analysis of the deposited data

Results flagged for a closer look

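Results differed between cell groups under the same contrast, by the interaction test of the sort difference in L6-Npy neurons against that in the other excitatory neurons. They are the 34 genes with a higher and the 440 with a lower sort difference in L6-Npy, and the 12 genes with the largest fitted values among them. These 12 rest on few counts, so the fitted log2 values depend on the prior count and are no bounds.

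The genes with a higher value were Ifit1 (9.17, at 0 CPM in the unsorted and 1.38 CPM in the sorted L6-Npy neurons), Cxcl14 (7.53, at 1.52 CPM in sorted L6-Npy and 0 in the other sorted neurons), Mirt1 (4.94), Slco2a1 (4.37, at 3.87 CPM in sorted L6-Npy neurons), Jmjd7 (4.02) and Gm38336 (3.43). Ifit1 is an interferon-induced gene and Cxcl14 encodes a chemokine. The genes with a lower value were Tekt1 (-7.94), Rimbp3 (-7.92), Scrn2 (-7.66), Tcf15 (-7.57) and Prdm8 (-7.44), all at 0 in sorted L6-Npy neurons, and Slamf1 (-4.03). Prdm8 was at 0.345 to 0.856 CPM in unsorted L6-Npy neurons and at 11.9 to 16.5 CPM in the other neurons of the 4 libraries. Without unsorted replicate 1 Gm38336 lost its call, without unsorted replicate 2 Tcf15, Mirt1, Jmjd7 and Gm38336 did, and without unsorted replicate 3 Tekt1, Prdm8, Tcf15, Rimbp3, Mirt1, Jmjd7 and Gm38336 did. At 10000 UMIs per cell Scrn2, Prdm8, Tcf15, Rimbp3, Mirt1 and Jmjd7 lost their calls, while Tekt1, Ifit1 and Gm38336 were not tested there, and against L6-Syt6 alone Tekt1, Prdm8, Mirt1 and Gm38336 lost theirs. DESeq2 gave none of the 12 an adjusted p.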

How the results depend on the processing

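None of the results that were compared across the alternatives reversed. Single genes were compared in this way for only some of those named. Without a filter on low values 458 genes were higher and 652 lower in L6-Npy than in the other subtypes, and with each other subtype weighted equally 192 were higher. DESeq2 called 502 genes higher in sorted L6-Npy neurons. For the sort difference of L6-Npy against the others, calls in all, higher and lower were 272, 4 and 268 with DESeq2, 291, 20 and 271 at 10000 UMIs per cell, and 765, 76 and 689 against L6-Syt6 alone, an alternative chosen after seeing the data. For the Npy split they were 96, 52 and 44 with DESeq2, and 68, 33 and 35 with no replicate block, that is, without pairing the 2 sides of a library. The causes were not tested. Mean unsorted shares of cells with a UMI were, for Npy, Oprk1 and Osr1, 53.3, 65.1 and 43.3% without thinning, 26.5, 17.0 and 6.78% at 2000 UMIs, and 35.8, 23.5 and 4.40% for 2 or more UMIs. Leaving out each library in turn moved no count of calls by more than 1.5 times. The interaction call was followed across alternatives for 14 genes, namely the flagged genes above with Npy and Oprk1. Of these 14, 11 were tested at 10000 UMIs per cell and 8 lost the call, among them Npy and Oprk1. Other named genes with a call, such as Lpl, Hs3st4 and Foxp2, were not among the 14. Depth limits the Npy split, where a cell without a UMI may express the gene, and 1 sorted library limits each sort comparison.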
